A study of Chelonus formosanus with 6 samples.

Results

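Actin is the protein of which thin filaments are built. In muscle these filaments slide along myosin, and in every other cell they form the mesh under the membrane, the core of cell projections and the tracks for transport. Insects carry several actin genes whose proteins are nearly alike: cytoplasmic actins, of which Actin-5C of Drosophila is the best known, are made in almost all cells, and muscle actins are made in muscle. Actin is also a common reference gene in quantitative PCR, where the level of a target is divided by that of a gene taken to be constant.

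The 5 unigenes described here were chosen by a list of identifiers, all of them named actin in the deposited annotation, out of 41986 unigenes assembled from heads of Chelonus formosanus, a braconid wasp whose larvae develop inside caterpillars. Poly(A) RNA was sequenced from 3 libraries of female heads and 3 of male heads, all labelled day 1, with no treatment or genetic change given. The labels do not say whether a library held separate animals or a pool, and each p-value therefore reflects only how far these libraries scatter, which may be technical. The series set out to find stable reference genes for quantitative PCR, with actin among its candidates; the PCR itself is not analysed here. When the comparison of the actins was set up it was already known which of them differed by sex and that actin 5C, isoform B, was steady. No genome and no transcript sequences were used, so a unigene is known by its best database hit.

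Total counts ran from 17937390 to 19517887 per library. Of the 41986 unigenes 21196 had enough counts to be tested, and 593 of them (2.8%) differed between the sexes by edgeR's quasi-likelihood test at an adjusted p under 0.05, 358 higher in females (1.69%) and 235 higher in males (1.11%). The CPM of the sexes did not overlap for 3659 unigenes (17.3%). CPM is the count scaled to library size with TMM factors, and TPM is the deposited value, which is also corrected for transcript length; log2 differences are female minus male throughout. Head markers were present in every library: the summed TPM of 16 photoreceptor unigenes (opsins, arrestins and their partners) ran from 11177 to 12834, and that of 6 neuron unigenes from 226 to 299.9.

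All 5 actin unigenes were assigned by the deposited annotation to the same orthologue group, K05692, actin beta/gamma 1, and the names separate them further. Actin, clone 205-like (TRINITY_DN26462_c0_g1), had its best hit in the parasitoid wasp Nasonia vitripennis and a Swiss-Prot match to the indirect flight muscle actin of the fruit fly Bactrocera dorsalis. The unigene called Actin (TRINITY_DN25761_c0_g5) matched an actin of the honeybee Apis cerana cerana and, in Swiss-Prot, the muscle actin of the hawkmoth Manduca sexta. The unigene called actin in lower case (TRINITY_DN26462_c0_g5) matched the water flea Daphnia magna and, in Swiss-Prot, an actin clone of the brine shrimp Artemia. The first 2 are called muscle-type and this one the brine shrimp type below, after those matches. The remaining pair, beta-actin, partial (TRINITY_DN26543_c3_g2; best hit in the braconid Cotesia chilonis), and actin 5C, isoform B (TRINITY_DN25761_c0_g4; best hit in Drosophila melanogaster), both matched Actin-5C. Names and hits describe the nearest database protein and do not establish in which wasp cells a unigene is expressed.

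Of these 5 unigenes, 3 were higher in male heads: the 2 with muscle actin matches by about the same factor, the brine shrimp type by less. The 2 with Actin-5C matches did not pass the test. None was higher in females. Of all tested unigenes 2.8% passed; the 5 were listed with these differences known, so nothing is read from their share.

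Actin, clone 205-like, stood at 876, 688 and 580.1 CPM in females 1 to 3 and at 1501, 1692 and 1349 CPM in males 1 to 3. Every male library lay above every female library, and female 1 was the highest of the females. The means were 715 ± 149.7 and 1514 ± 172 CPM (SD, n = 3 libraries per sex, as for all means below), a 2.12-fold higher level in males. The log2 difference was -1.08 with a standard error of 0.14 and a 95% interval of -1.40 to -0.76 (edgeR adjusted p = 0.00197).

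The unigene Actin had 1571, 1170 and 1028 CPM in females and 2503, 2730 and 2542 CPM in males, again without overlap and with female 1 above the other females. The males lay close together, at 2592 ± 121 CPM, and the females were more spread, at 1256 ± 281 CPM. The fold difference was 2.06 in favour of males, a log2 difference of -1.04 with a standard error of 0.14 and an interval of -1.35 to -0.74 (edgeR adjusted p = 0.00204). Leaving out female 1 moved the log2 differences of the 2 muscle-type unigenes to -1.25 and -1.23, and leaving out female 3 moved them to -0.95 and -0.92, all still past the threshold.

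The brine shrimp type unigene, TRINITY_DN26462_c0_g5, had 199, 187 and 180.1 CPM in females and 253, 304 and 342 CPM in males. The females differed little among themselves and the males more, and the sexes did not overlap. Its level was 1.59-fold higher in males, 299.6 ± 44.4 against 189 ± 9.49 CPM, a log2 difference of -0.67 with a standard error of 0.11 and an interval of -0.90 to -0.43 (edgeR adjusted p = 0.00584).

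Beta-actin, partial, had 190.1, 154 and 148 CPM in females and 182, 183 and 194 CPM in males. Females 2 and 3 lay below all males and female 1 lay among them, so the sexes overlapped. The means were 164 ± 22.6 and 186 ± 6.49 CPM, a log2 difference of -0.18 with an interval of -0.40 to 0.03 (edgeR adjusted p = 0.538). The interval therefore includes both no difference and a higher level in males. Without female 1 the log2 difference was -0.30 (adjusted p = 0.0998).

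Actin 5C, isoform B, had 824, 778 and 774 CPM in females and 756, 791 and 885 CPM in males. The lowest and the highest library were both male, and the highest was 1.17 times the lowest. The means were 792 ± 27.9 and 811 ± 66.5 CPM, and the log2 difference was -0.03 with an interval of -0.22 to 0.15 (edgeR adjusted p = 0.937). On a linear scale that interval allows a female level of 0.858 to 1.11 times the male level. Its sign was not fixed: without male 3 the log2 difference was 0.04, and on the deposited TPM of all libraries it was 0.08 (limma).

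**Figure D1:**
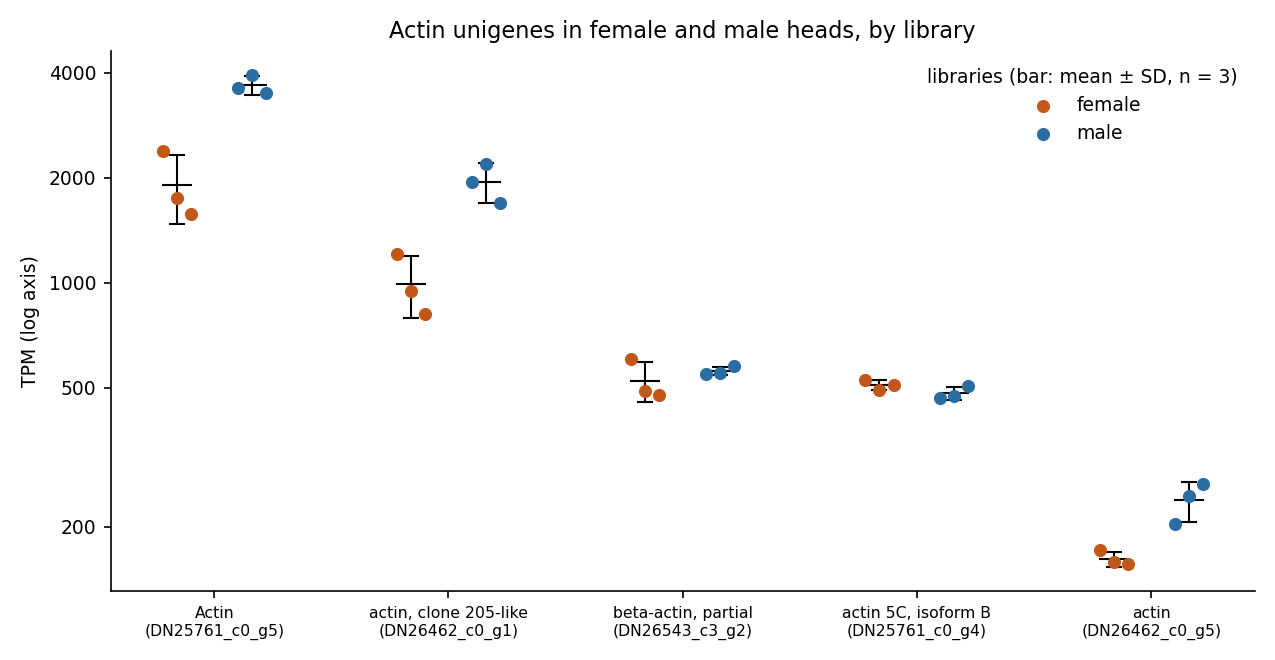
TPM (log axis) of the 5 actin unigenes in each of the 3 female and 3 male libraries, ordered by their mean; points are libraries and bars the mean ± SD. Actin, actin clone 205-like and the unigene actin have all male points above all female points, whereas the points of beta-actin, partial, and actin 5C, isoform B, overlap between the sexes.

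Levels of different unigenes were compared per length. By mean TPM the order was the same in both sexes. Actin was the highest, with 2384, 1748 and 1571 TPM in females and 3602, 3928 and 3496 TPM in males. Actin, clone 205-like, followed with 1207, 948 and 815 TPM in females and 1948, 2195 and 1691 TPM in males. Beta-actin, partial, at 524 ± 69.8 TPM in females and 559 ± 16.4 TPM in males, and actin 5C, isoform B, at 509 ± 17.2 and 483 ± 20.7 TPM, were neighbours whose values in females did not differ beyond their spread; in males they did not overlap. The brine shrimp type was the lowest, with 161 ± 8.16 TPM in females and 238 ± 31.1 TPM in males.

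This order rests on the lengths the authors' counting assigned. The length at which count and TPM agree, scaled to unigenes with a single transcript, was 1911 bases for actin 5C, isoform B (91.6% of its 2085 bases), 1433 for the brine shrimp type (94.8% of 1512) and 886 for actin, clone 205-like (83.4% of 1063). It was only 808 for Actin (39.2% of 2062) and 382 for beta-actin, partial (25.9% of 1476), while 90% of 3750 single-transcript unigenes lay between 0.882 and 1.07 of their length. The unigene Actin stands for 3 assembled transcripts, beta-actin, partial, for 5 and actin 5C, isoform B, for 8. Divided by the length of the unigene instead, the levels over all libraries averaged 1048 CPM per 1000 bases for actin, clone 205-like, 933 for Actin, 384 for actin 5C, isoform B, 161 for the brine shrimp type and 119 for beta-actin, partial. Beta-actin, partial, thus stood beside actin 5C, isoform B, by TPM and was the lowest of the 5 by unigene length. Within a unigene the implied length varied less between libraries, from 800.2 to 811 bases for Actin, from 372 to 387 for beta-actin, partial, and from 1867 to 1941 for actin 5C, isoform B. On the deposited TPM (limma) the sex differences of the 3 actins that passed kept their direction but were each somewhat smaller than by edgeR on counts. They were -0.98 against -1.08 for actin, clone 205-like, -0.97 against -1.04 for Actin and -0.55 against -0.67 for the brine shrimp type.

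The makeup of the actin messages also differed between the sexes. The 5 unigenes summed to 4892, 3836 and 3529 TPM in females and 6766, 7395 and 6535 TPM in males, 1.69 times as much in males, without overlap. They took 0.277% to 0.367% of all counts in female libraries and 0.512% to 0.562% in male libraries. The 3 unigenes that differed summed to 1.92 times as much TPM in males, while the sums of the 2 Actin-5C unigenes overlapped, at 1033 ± 84.3 and 1041 ± 37.1 TPM.

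As shares of that summed TPM, Actin made up 46.3% ± 2.19 in females and 53.3% ± 0.195 in males, and actin, clone 205-like, 24.2% ± 0.919 and 28.1% ± 1.99. Actin 5C, isoform B, took a smaller share in males: 10.8%, 12.8% and 14.4% in females against 6.89%, 6.42% and 7.74% in males. Beta-actin, partial, went from 12.9% ± 0.601 to 8.13% ± 0.681. These 4 shares did not overlap between the sexes. Since the 5 unigenes were listed with their sex differences known, the shares restate those differences and are given with no test. The share of the brine shrimp type, 4% ± 0.471 and 3.46% ± 0.536, overlapped. Shares sum to the whole, so these are not 5 independent measurements.

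**Figure D2:**
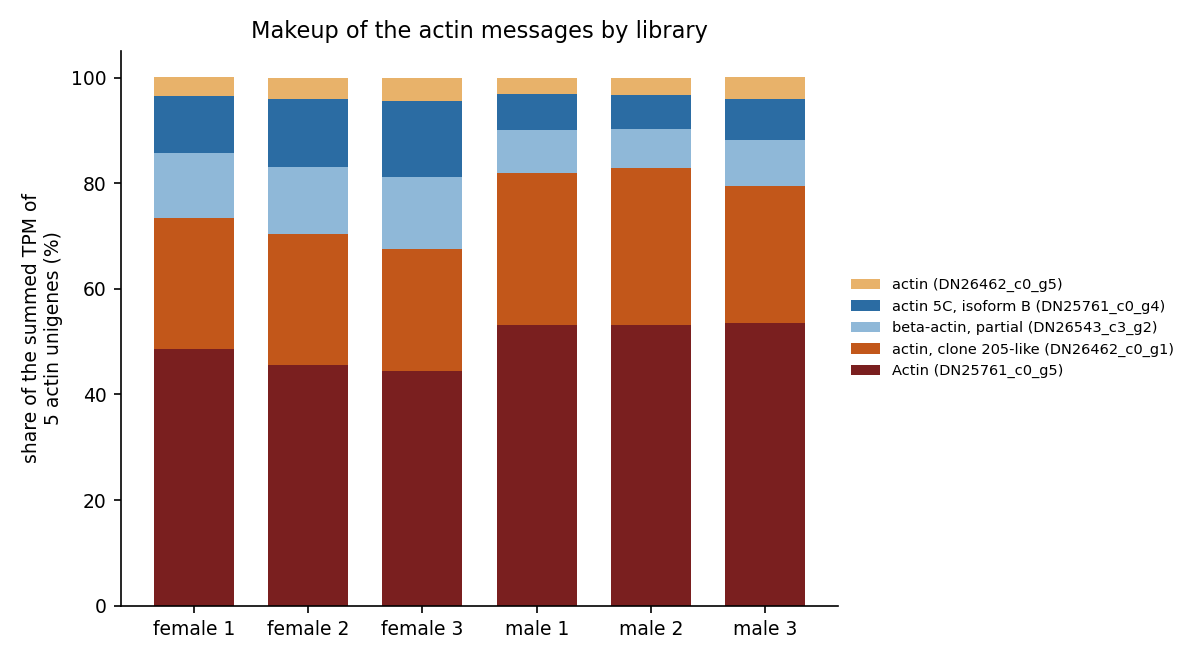
Percent of the summed TPM of the 5 actin unigenes that each unigene took in each library (stacked bars, one bar per library). The 2 blue segments, of the Actin-5C type, are narrower in all 3 male bars than in any female bar.

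A quantitative PCR normalised to a reference gene reports the ratio of the target to that gene in each sample. Counts of Actin divided by those of actin 5C, isoform B, gave 1.91, 1.5 and 1.33 in females and 3.31, 3.45 and 2.87 in males. The same ratio for actin, clone 205-like, was 1.06, 0.884 and 0.75 in females and 1.98, 2.14 and 1.52 in males. For the brine shrimp type it was 0.241, 0.24 and 0.233 in females and 0.335, 0.384 and 0.386 in males. None of these 3 ratios overlapped between the sexes, and each was higher in males, with mean log2 differences of -1.04, -1.07 and -0.63. Since the steady denominator and the differing numerators were chosen in these same libraries, the ratios restate those differences per library and are given with no test. The ratio of beta-actin, partial, to actin 5C, isoform B, was 0.231, 0.198 and 0.192 in females and 0.241, 0.231 and 0.219 in males, which overlapped (log2 difference -0.16). These ratios are of counts, so they compare libraries and not the abundance of a unigene with that of another.

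As candidates for a reference gene the 5 actins spread over a wide range. The coefficient of variation of CPM over the 6 libraries was 5.84% for actin 5C, isoform B, 10.9% for beta-actin, partial, 27.6% for the brine shrimp type, 39.3% for Actin and 41.4% for actin, clone 205-like. Among the 500 tested unigenes nearest in mean level, the spread (SD of log2 CPM) of actin 5C, isoform B, lay at percentile 23, and that of beta-actin, partial, at percentile 73.4. The other 3 lay at percentiles 95.4 to 96.4, so more than 9 in 10 unigenes of like level were steadier. Since actin 5C, isoform B, was singled out for its steadiness in these same libraries, its values are a description.

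Beside the highest-mean unigene of 5 other reference families, actin 5C, isoform B, was the second steadiest. Elongation factor 1-alpha, which brings aminoacyl-tRNA to the ribosome, had a coefficient of variation of 4.35%. The glycolytic enzyme GAPDH had 6.48%, ribosomal protein L6 6.71% and tubulin alpha-1 chain 7.21%, all near actin 5C, isoform B, whereas heat shock 70 kDa protein cognate 4, a chaperone, had 30.2%. The GAPDH unigene has its best hit in Homo sapiens, and whether it is a wasp transcript was not tested. Each of these families is shown by 1 unigene only, and its other members can differ from it. Of 7 tested tubulin unigenes with arthropod hits, 2 passed as higher in females (28.6%, against 1.69% of all tested unigenes). None passed as higher in males and 5 did not pass. Of 73 tested ribosomal protein unigenes with arthropod hits 0 passed. By geNorm M, the mean SD of a candidate's log2 ratios to the other 9 of the 10 candidates, the lowest values belonged to ribosomal protein L6 (0.263), actin 5C, isoform B (0.269), elongation factor 1-alpha (0.274) and beta-actin, partial (0.284). Actin and actin, clone 205-like, at 0.539 and 0.556, were near the heat shock unigene at 0.562. Computed within the 5 actins alone, geNorm M put actin 5C, isoform B, highest, at 0.431, against 0.32 to 0.387 for the others, 3 of which were higher in males. The measure thus depends on the panel, and differences among the steadiest have no test here.

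**Figure D3:**
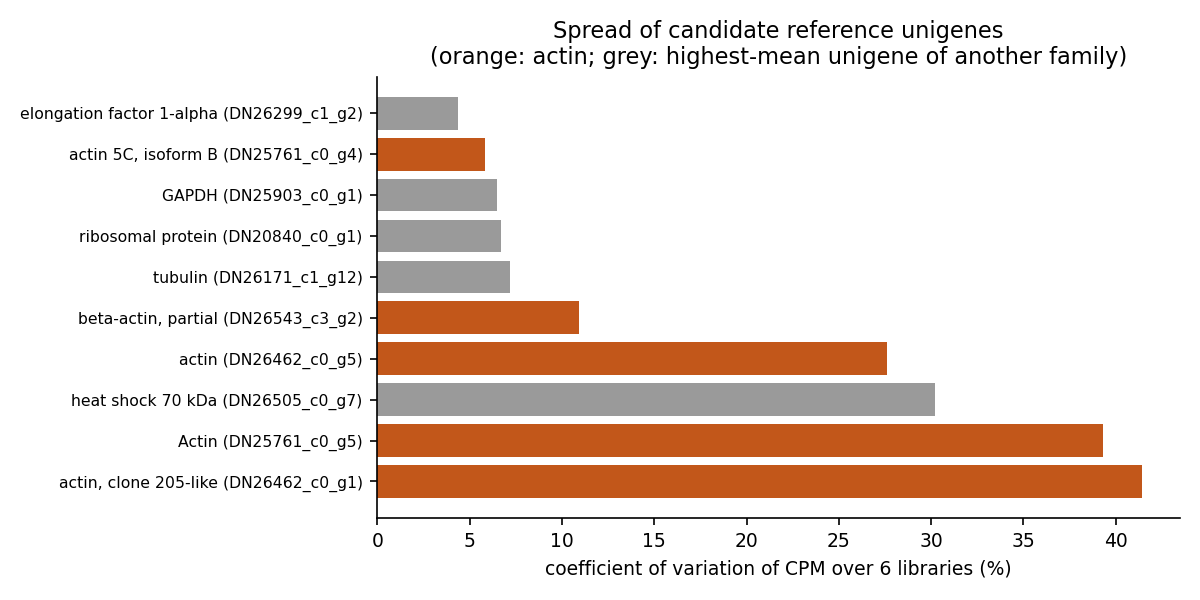
Coefficient of variation of CPM over the 6 libraries (percent, bars from 0) of the 5 actin unigenes (orange) and of the highest-mean unigene of 5 other reference families (grey). Actin 5C, isoform B, is among the shortest bars, and Actin and actin, clone 205-like, are the longest.

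Scaling to a single actin shifts the log2 differences of all unigenes by about that actin's own difference. It also puts that actin's scatter between libraries into every unigene. The counts that follow describe both together and are no separate test. With every library scaled to a single actin in place of TMM, as a PCR with that reference would do, edgeR called 483 unigenes (2.28%) with actin 5C, isoform B, and 583 (2.75%) with beta-actin, partial, against 593 with TMM. With actin 5C, isoform B, 472 of the calls were TMM calls in the same direction, and 34.2% of calls were higher in males, compared with 39.6% under TMM. With beta-actin, partial, 466 were shared and 20.6% were higher in males, the median log2 difference of all tested unigenes having moved from 0.00 to 0.20.

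Scaled to the brine shrimp type, 12666 unigenes (59.8%) were called, 12568 of them higher in females, and the median of all unigenes moved to 0.65. Scaled to Actin the calls were 18605 (87.8%), with 68 higher in males and a median of 1.08. Scaled to actin, clone 205-like, they were 18853 (89%), with 66 higher in males and a median of 1.11. The medians are close to each reference's own sex difference with its sign turned. The actins themselves moved too: scaled to Actin, the log2 difference of actin 5C, isoform B, was 1.05, that of beta-actin, partial, 0.88 and that of actin, clone 205-like, -0.03. Scaled to beta-actin, partial, Actin stood at -0.88 and actin, clone 205-like, at -0.91, and the brine shrimp type no longer passed (-0.47, edgeR adjusted p = 0.104).

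**Figure D4:**
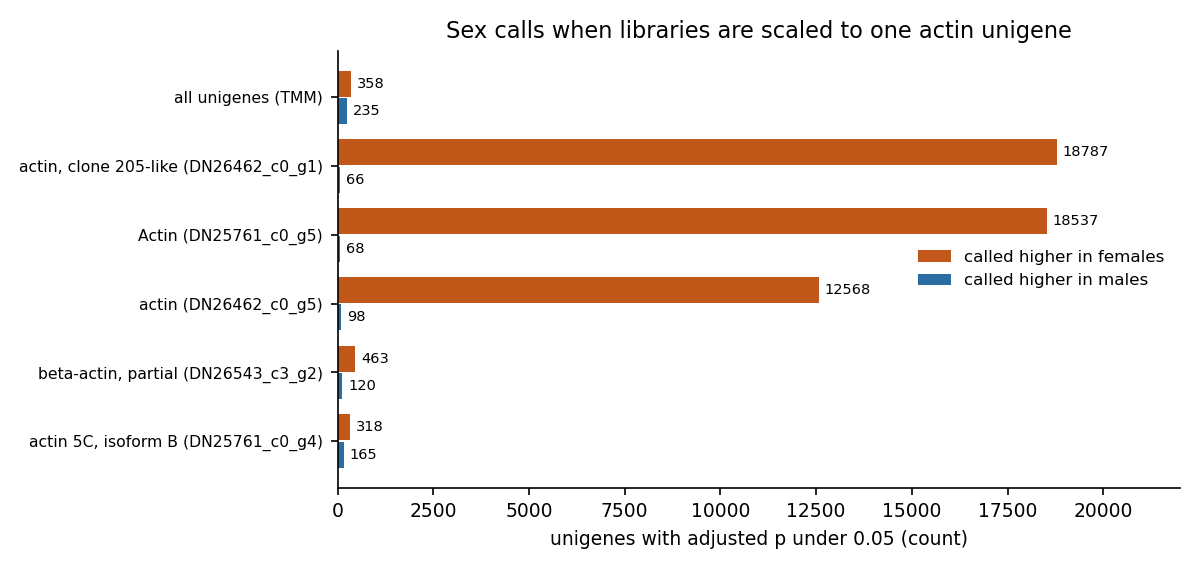
Number of unigenes called higher in females (orange) and in males (blue) by edgeR at an adjusted p under 0.05 when libraries are scaled to all unigenes (TMM) or to a single actin unigene. With the 3 actins that differ by sex the female bars run from 12568 to 18787 calls, against 318 with actin 5C, isoform B, and 358 with TMM.

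Some markers of muscle were higher in males, as were the 3 actins that differed. The muscle list, word patterns for myosin heavy chain, troponins, tropomyosins, titin relatives and similar proteins, held 58 unigenes, none at 0 in all libraries. Of its 45 tested members 7 passed as higher in males (15.6%, against 1.11% of all tested unigenes), 0 passed as higher in females and 38 did not pass; the median log2 difference was -0.22, against 0.00 for all tested unigenes. Among the 45 the log2 difference was above 0 for 16, up to 1.04, none of which passed. The count was 16 without female 1, 4 without female 2, female 3 or male 2, 13 by DESeq2 and 3 by limma on TPM. Their summed TPM ran from 24356 to 33468 in females and from 34771 to 37809 in males, with female 1 again the highest of the females. In bulk heads a larger number of muscle cells and more RNA per muscle cell cannot be told apart.

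Myosin regulatory light chain 2, which sits on the neck of the myosin head, was 1.84-fold higher in males (3052 ± 454 against 5622 ± 426 CPM, edgeR adjusted p = 0.00194). Tropomyosin-1, which lies along the actin filament and controls its contact with myosin, was 1.8-fold higher in males (600.2 ± 89.7 against 1078 ± 50.7 CPM, adjusted p = 0.00152). Muscle myosin heavy chain, the most abundant of the list, had 8218 ± 2059 CPM in females and 12408 ± 1231 CPM in males and did not pass (adjusted p = 0.0974).

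Relative to the summed muscle TPM the 2 muscle-type actins were higher in males. Actin equalled 7.12%, 6.3% and 6.45% of the muscle sum in females and 9.96%, 11.3% and 9.25% in males. Actin, clone 205-like, equalled 3.61%, 3.41% and 3.35% in females and 5.39%, 6.31% and 4.47% in males. Neither overlapped between the sexes. A further setting, chosen after seeing the data, scaled libraries to the summed muscle counts. The log2 differences were then -0.57 for Actin (edgeR adjusted p = 0.0218) and -0.61 for actin, clone 205-like (adjusted p = 0.0244). Every unigene moves with the muscle sum on that scale: actin 5C, isoform B, stood at 0.48 and beta-actin, partial, at 0.31. The share of all tested unigenes called on that scale is not given here. The brine shrimp type no longer passed on that scale (log2 difference -0.16, adjusted p = 0.473), and its percentages of the muscle sum overlapped, from 0.51% to 0.64% in females and from 0.564% to 0.704% in males. The muscle sum adds up whatever the word patterns matched and does not measure muscle content. The part of muscle content in the actin differences was not tested.

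Markers of other tissues are given for comparison. Summed TPM of the 6 neuron unigenes was 263 to 299.9 in females and 226 to 258 in males, and that of 10 glia unigenes 1575 to 1589 and 1525 to 1570. Both sums were a little higher in females without overlap. The median log2 differences of the members by edgeR did not share that direction, at -0.02 for the neuron list and -0.13 for the glia list. No direction is therefore read from these sums. The sums of the photoreceptor, fat body, haemocyte and cuticle lists overlapped between the sexes. Set against backgrounds of 1.69% called with females above males and 1.11% with males above females, 1 of 6 neuron, 1 of 15 photoreceptor and 1 of 20 cuticle unigenes passed as higher in females, and 0 of 10 glia and 0 of 4 haemocyte unigenes passed in either direction. Of 10 fat body unigenes 2 passed with females above males and 1 the other way (30%, a larger share than in the muscle list), with a median log2 difference of 0.35. No list member was at 0 in all libraries. Their part in the actin differences was not tested.

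Proteins that build, cut, cap and link actin filaments passed the test in shares that are read against the 2.8% of all tested unigenes. Of 14 tested actin-related proteins and subunits of the Arp2/3 complex, which starts branches on filaments, 0 passed, with a median log2 difference of -0.11; 1 had an unadjusted p under 0.05. The most abundant, Arp2/3 complex subunit 1A, had 297 ± 11.9 CPM in females and 279 ± 1.64 CPM in males (edgeR adjusted p = 0.711). Of 26 regulators of monomers and filament ends 1 was higher in females and 1 in males (7.69%), with a median of -0.12. Formin-like protein CG32138, of a family that elongates filaments, stood at 19.2 ± 2.13 CPM in female and 11.9 ± 0.296 CPM in male heads (1.62-fold higher in females, adjusted p = 0.0103). Coronin-2B-like, of a family that binds filaments and acts on their branches, had 33.9 ± 1.9 and 49.4 ± 6.02 CPM (1.46-fold higher in males, adjusted p = 0.0164). Profilin, which feeds actin monomers to growing ends, was the most abundant, at 221 ± 16.5 and 242 ± 7.92 CPM (adjusted p = 0.603).

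Of 31 cross-linkers and anchors 1 passed (3.23%), near the share of all tested unigenes. Espin, which bundles filaments, had 23.2, 26.2 and 20.9 CPM in females and 9.19, 7.18 and 13.3 CPM in males, 2.36-fold higher in females and opposite in direction to the 3 actins (edgeR adjusted p = 0.006). Filamin-A, a large cross-linker and the most abundant of the list, had 1122 ± 228 CPM in females and 1649 ± 215 CPM in males without overlap, and did not pass (adjusted p = 0.0828). Of 13 unconventional myosins, motors that carry cargo along actin, 0 passed (edgeR; 2 with an unadjusted p under 0.05). The most abundant was neither inactivation nor afterpotential protein C, a myosin of photoreceptors in Drosophila, at 616 ± 24.5 and 723 ± 41.8 CPM (adjusted p = 0.226).

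**Figure D5:**
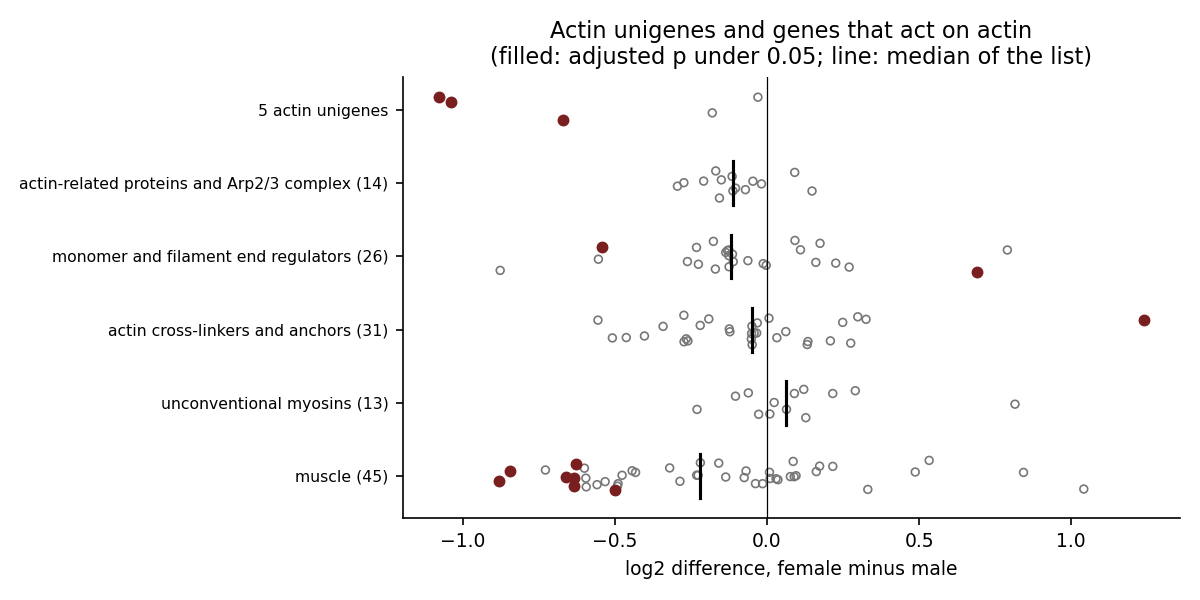
Log2 difference between female and male heads of the 5 actin unigenes and of each tested member of 5 lists of actin-binding and muscle proteins (points; filled where edgeR's adjusted p is under 0.05; vertical line, median of the list; number tested in brackets). Filled points left of 0 are 3 actins, 7 muscle unigenes and 1 regulator; 2 filled points lie right of 0.

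The unigene names give the assembly cluster of each actin; how alike the sequences are was not measured. Cluster DN25761 holds 8 unigenes, among them Actin, which differed by sex, and actin 5C, isoform B, which did not; cluster DN26462 holds 6, among them actin, clone 205-like, and the brine shrimp type. Cluster DN26543 holds 10, among them beta-actin, partial, and unigenes with unrelated names such as a trehalose-phosphate synthase (named after its values were seen). The counts of 4 of the 5 actins were not whole (by more than 0.005) in 5 or 6 of the 6 libraries, and those of beta-actin, partial, were whole in all 6. How many reads were divided between unigenes is not known from the table. Summed over both listed members, cluster DN25761 had a log2 difference of -0.73 (edgeR adjusted p = 0.00432) and cluster DN26462 of -1.01 (adjusted p = 0.00132), and all 5 together gave -0.79 (adjusted p = 0.00342). The sum of cluster DN25761 thus passed although actin 5C, isoform B, alone did not. A unigene of cluster DN25761 without a description (DN25761_c0_g3, 3188 bases, named after its values were seen) was also higher in males, with 307, 380.1 and 449.8 counts in females and 547, 572 and 762 in males (log2 difference -0.79, adjusted p = 0.0123).

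The annotation describes 7 further unigenes with the word actin. Of all 12, all tested, 3 were higher in males (25%, against 1.11% of all tested unigenes) and 0 in females. The median log2 difference was -0.11. These 3 are the listed members already known to differ, so nothing is read from the share. The 5 with best hits in mammals, such as actin, cytoplasmic 2 (36.1 ± 2.98 CPM in females and 35.7 ± 5.52 in males, edgeR adjusted p = 0.983), summed to between 0.86% and 2.05% of the counts of the 5 listed actins in a library. Another 2, both named actin, clone 403-like, with hits in the braconid Microplitis demolitor, stood near 1 CPM (means of 0.84 to 1.12 CPM). None of the 7 passed the test. A unigene described only by the symbol ACTA2 (DN25761_c0_g7, best hit in Cricetulus griseus, named after its values were seen) is not counted among the 12. It did not pass either (log2 difference -0.24, edgeR adjusted p = 0.877).

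In the authors' deposited table the log2 fold changes of female over male were -1.07 for actin, clone 205-like, and -1.04 for Actin, both marked significant, with FDR of 3.18e-10 and 5.42e-10. For the brine shrimp type the authors' deposited table gave -0.66 and an FDR of 1.83e-05 but did not mark it significant. All 355 unigenes marked significant in the authors' deposited table had an absolute log2 fold change of at least 1 after rounding, and 438 others had an FDR under 0.05 without the mark. For beta-actin, partial, and actin 5C, isoform B, the authors' deposited table gave -0.17 and -0.02, with FDR of 0.77 and 1.

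The unigenes whose pattern over the 6 libraries was nearest to each actin were found by the root-mean-square distance of centred log2 CPM among 2902 unigenes with a mean of at least 50 CPM and a description. Actin and actin, clone 205-like, of different assembly clusters, were each other's nearest, at 0.0733 on the log2 scale. Next to actin, clone 205-like, came a 15-hydroxyprostaglandin dehydrogenase-like unigene (0.115) and a spermine oxidase-like unigene (0.15), and next to Actin came tropomyosin-1 (0.134) and the same dehydrogenase (0.141). Nearest to the brine shrimp type were tropomyosin alpha-3 chain (0.0876), the muscle Z-disc protein Zasp (0.117) and slit homolog 1 (0.125). Actin 5C, isoform B, lay nearest to dosage compensation regulator (0.0118), mitochondrial-processing peptidase subunit alpha (0.0171) and a 26S proteasome subunit (0.0225), and beta-actin, partial, to janus kinase and microtubule-interacting protein 3-like (0.0447), centrosomin (0.0455) and 2-oxoglutarate dehydrogenase (0.0497). Among unigenes that vary little, small distances are common, so the distances of the steady actins are not comparable with those of the others.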

How the data were processed

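The deposited table holds expected counts per unigene and library, which per the file headers the authors did not normalise; 8.81% to 9.5% of values in a library are fractional, and all were rounded for the count tests. TPM values of each library were computed by the authors. The deposited log2 fold change, p-value and FDR are those of the authors' comparison of females over males, whose test is not given in the sources used here. Per the labels' protocols, reads were cleaned with Cutadapt and assembled with Trinity 2.4.0, and the longest transcript of a group stood for the unigene. Such a group is smaller than the assembly clusters named above, which hold several unigenes each. The read counter is not given in the sources used here. Without a genome, an assembly can split a gene, merge copies and divide reads among near-identical actins.

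Counts of all 6 libraries were tested with edgeR 4.0.16 in R 4.3.3 (TMM; filterByExpr, minimum count 10, minimum total 15; quasi-likelihood test; Benjamini-Hochberg over all 21196 unigenes tested; threshold 0.05). Standard errors were taken from the F statistic, and 95% intervals from a t quantile. Percentiles used log2(CPM + 0.5). Alternatives used DESeq2 1.42.0 and limma 3.58.1 on log2(TPM + 1); Python 3.11.15, scipy 1.17.1 and matplotlib 3.10.9 did the rest. The steps were tested on simulated counts with known changes. Of 105 unigenes changed by a log2 difference of 1, 52.4% were called, and of 91 changed by 2, 87.9% were called. Of all calls 6.2% were false. A unigene that did not pass can therefore still differ between the sexes.

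Gene lists are word patterns in the descriptions, with hits outside arthropods left out except for actin itself and the reference families, whose highest-mean unigene was taken whatever its hit; a list holds what its words match. The members and lists were chosen with earlier results of these data known, and the patterns were corrected after reading the descriptions. Beside the 5 actins, the text names in each list of cytoskeletal and muscle proteins the 2 smallest p past the threshold in each direction and the highest mean, the highest mean of each reference family, and the 3 nearest patterns of each actin; other names are marked. No per-sample column was left without a sample.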

Additional observations from a re-analysis of the deposited data

How the results depend on the processing

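The 3 actins that differed stayed past the threshold, in the same direction, under 14 alternatives of test, filter, table, left-out library and scaling (size factors, upper quartile, actin 5C); their log2 differences ran from -1.25 to -0.95 (actin, clone 205-like), -1.23 to -0.92 (Actin) and -0.78 to -0.55 (DN26462_c0_g5, adjusted p up to 0.0477). Actin 5C was picked as steady in these same libraries, so scaling to it is no separate check. Outside these 14, DN26462_c0_g5 lost its call when scaled to beta-actin, partial (-0.47, 0.104). Scaled to muscle counts, DN26462_c0_g5 gave -0.16 (adjusted p = 0.473), beta-actin, partial, 0.31 (0.157) and actin 5C, isoform B, 0.48 (0.0552); by that scaling's construction every value moves with the muscle sum. Actin 5C, isoform B, turned to 0.08 by limma (0.656); its log2 difference ran from -0.08 to 0.04 over the left-out libraries, and its coefficient of variation from 3.22% to 6.47%. Summed counts gave -0.73 for cluster DN25761 (0.00432) and -0.79 for all 5 actins (0.00342), sums that include the muscle-type members.

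The count of 593 unigenes ran from 357 to 688 over the left-out libraries (210 to 382 higher in females, 144 to 306 in males). Those higher in males were 359 by DESeq2 and 112 by limma. Scaled to actin, clone 205-like, Actin, DN26462_c0_g5 and beta-actin, calls higher in males were 66, 68, 98 and 120; in all, the first 3 gave 18853, 18605 and 12666 calls, with 18787, 18537 and 12568 higher in females. Of the 193 tested members of 11 cytoskeleton, muscle and cell type lists 16 were called (7 higher in females, 9 in males; 2.8% of all tested unigenes were), with 8 to 29 over left-out libraries (4 to 8 and 4 to 21), 27 by DESeq2 (18 higher in males), and 4 higher in males by limma; the cause was not tested.

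Same-numbered female and male libraries did not deviate together (correlations of -0.0126, -0.0594 and -0.0155). No label says that replicate numbers pair libraries, and these correlations cannot exclude it. With the replicate block 576 unigenes were called, and the actins' log2 differences were -1.10, -1.07, -0.66, -0.19 and -0.03 for clone 205-like, Actin, DN26462_c0_g5, beta-actin and actin 5C, with no call changed.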
